A study of Mus musculus with 15 samples.

Results

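The EMT transcription factors are described here as 9 genes chosen by symbol, *Snai1*, *Snai2*, *Twist1*, *Twist2*, *Zeb1*, *Zeb2*, *Prrx1*, *Prrx2* and *Tcf21*, out of 26509 genes that either count table of the series lists. The table of cultured mouse RPE cells (mRPE) lists 8 of the 9 among its 20910 genes, and the RPE/choroid table lists all 9 among its 25038. *Tcf21* was not analysed here in mRPE. The mRPE cells were pooled from C57/BL6J mice aged 8 weeks or more and immortalized with lentiviral papillomavirus oncogenes. The 4 WT libraries are labelled only as mRPE WT. The *Prom1*-KO libraries come from cells that carry Cas9 and received a guide RNA against *Prom1*, and they are of 2 clones, KO22 (n = 3) and KO26 (n = 2), so that a clone and its genotype cannot be told apart. One library of each mRPE group belongs to library series 8995 and the others to series 9262. The RPE/choroid libraries (series 12965) come from WT mice (n = 3) and from mice labelled *Prom1*-KO (n = 3), which carry Prom1 fl/fl alleles and a tamoxifen-inducible Cre under the RPE65 promoter. Apart from the donors of the mRPE cells, mice of either sex, aged 6 to 8 weeks, served in the project as a whole. The methods do not say so of the RPE/choroid mice by name. Whether the WT mice received tamoxifen is not given in the sources used here. The study asked what loss of *Prom1*, the gene of a cholesterol-binding membrane glycoprotein, does to RPE.

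Epithelial-mesenchymal transition (EMT) is the loss of cell junctions and apicobasal polarity together with a gain of motility and matrix production. A small set of transcription factors drives it. The SNAIL zinc finger proteins and the ZEB zinc finger homeobox proteins bind E-boxes in the promoters of junction genes such as *Cdh1* (E-cadherin) and repress them, the TWIST basic helix-loop-helix proteins act as dimers with E proteins, and the PRRX homeobox proteins mark mesenchyme and can induce EMT. *Tcf21*, another basic helix-loop-helix factor, marks mesenchymal and fibroblast lineages. In the RPE, a pigmented epithelium that supports photoreceptors, EMT is known from cultured cells and from scarring diseases of the retina.

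The factors fall into paralog pairs with similar coding sequences, and the results below turn on which member of a pair a read was counted for. The most alike 120-base coding stretches of 3 pairs are printed 5′ to 3′ on the coding strand to show how far reads of the paralogs differ, with the bases that differ between the 2 members in capitals.
Snai1: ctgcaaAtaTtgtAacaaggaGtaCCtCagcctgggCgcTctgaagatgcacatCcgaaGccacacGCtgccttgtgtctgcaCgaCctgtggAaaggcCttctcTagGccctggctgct
Snai2: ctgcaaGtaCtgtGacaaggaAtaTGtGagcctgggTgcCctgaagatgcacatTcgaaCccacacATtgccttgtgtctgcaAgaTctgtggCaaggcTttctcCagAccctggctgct
Twist2: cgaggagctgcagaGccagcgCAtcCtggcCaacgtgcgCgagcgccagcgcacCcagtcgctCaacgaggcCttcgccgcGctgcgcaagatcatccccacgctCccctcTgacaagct
Twist1: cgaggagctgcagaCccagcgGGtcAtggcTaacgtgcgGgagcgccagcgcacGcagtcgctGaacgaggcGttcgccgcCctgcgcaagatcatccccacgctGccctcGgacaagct
Prrx1: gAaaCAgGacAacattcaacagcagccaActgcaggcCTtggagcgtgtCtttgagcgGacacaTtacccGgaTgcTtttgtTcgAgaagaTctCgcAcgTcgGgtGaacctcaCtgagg
Prrx2: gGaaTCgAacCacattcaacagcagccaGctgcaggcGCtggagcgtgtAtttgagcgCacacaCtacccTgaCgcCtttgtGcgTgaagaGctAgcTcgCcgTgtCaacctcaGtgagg

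Within these stretches 84.2% of bases were identical for *Snai1* and *Snai2*, 90.0% for *Twist2* and *Twist1* and 80.8% for *Prrx1* and *Prrx2*, and the same measure was 86.7% for *Zeb2* and *Zeb1*. The longest run of identical bases shared by the canonical transcripts of a pair was 23 bases for the SNAIL and TWIST pairs, 20 for the ZEB pair and 19 for the PRRX pair. No identical run was thus longer than 23 bases in these canonical transcripts. The genes lie at chr2:167380113-167384734 (*Snai1*), chr16:14523425-14527252 (*Snai2*), chr12:34007645-34009828 (*Twist1*), chr1:91729176-91796542 (*Twist2*), chr18:5591851-5775467 (*Zeb1*), chr2:44873644-45007464 (*Zeb2*), chr1:163041844-163142033 (*Prrx1*), chr2:30724984-30774419 (*Prrx2*) and chr10:22692803-22696073 (*Tcf21*) in GRCm39 with GENCODE vM39.

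In WT mRPE the homeobox factor *Prrx1* was the most abundant of the 8 factors per length, at 47.9 ± 1.64 CPM per kb of canonical transcript (SD, n = 4), where CPM is the count per library size after TMM scaling. It was followed by *Zeb2* (35.4 ± 6.18) and *Zeb1* (34.1 ± 2.95), whose ranges overlapped, and by *Twist1* (19.6 ± 0.563), *Snai2* (14.5 ± 1.34) and *Prrx2* (6.65 ± 1.07 CPM per kb). *Snai1* (3.37 ± 0.86) and *Twist2* (2.17 ± 0.271) were lowest, and their ranges overlapped. In WT RPE/choroid the order per length was different. *Zeb2*, which is also expressed by neural and blood-derived cells, was highest at 18.3 ± 2.37 CPM per kb (n = 3). *Zeb1* (6.35 ± 1.47) and *Snai2* (4.93 ± 0.787) came next and overlapped, before *Prrx1* (2.72 ± 0.573) and *Twist1* (1.11 ± 0.272). *Snai1* (0.357 ± 0.075) and *Prrx2* (0.283 ± 0.0239) overlapped, and *Twist2* (0.197 ± 0.0342) and *Tcf21* (0.104 ± 0.0516 CPM per kb) were lowest. Both orders changed when the length of all annotated exons together was used, which put *Twist1* first in WT mRPE and *Snai2* first in WT RPE/choroid.

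The tables were made and scaled separately, so levels across them are set side by side with no test. All 8 shared factors had a higher CPM in every WT mRPE library than in any WT RPE/choroid library, for example *Prrx1* at 274 to 294 against 12.5 to 19.2 CPM. Mitochondrially encoded genes took 64.9% to 69.1% of the counts of WT RPE/choroid and 17.6% to 21.7% of WT mRPE. With those genes left out of the totals, 6 of the 8 remained higher in mRPE. *Zeb2* was then lower in mRPE, at 204 to 295 against 337 to 435 CPM, and *Snai2* overlapped, at 35.2 to 45.4 against 34.1 to 46.7 CPM.

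KO22 differed from WT in every one of the 8 factors, in opposite directions within each paralog pair. *Twist2*, *Snai1*, *Prrx1* and *Zeb2* rose, and *Twist1*, *Snai2*, *Prrx2* and *Zeb1* fell, at an adjusted p under 0.05 in edgeR's quasi-likelihood test over 20455 genes. Only *Twist2* also passed the limit of 1.2 on the absolute log2 fold change, with 11.4% of all genes past both limits in the higher and 13.8% in the lower direction. At the adjusted p alone 53% of all genes passed, 26.9% higher and 26.1% lower, which is the background for 8 of 8 factors. The pattern within pairs was noticed after the values were seen.

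*Snai1*, a zinc finger repressor induced early in EMT, was at 5.17, 4.04, 5.30 and 7.39 CPM in the 4 WT libraries and at 14.2, 7.67 and 8.07 CPM in the 3 KO22 libraries, the first of each in series 8995. Every KO22 library lay above every WT library, the nearest at 7.67 against 7.39 CPM. *Snai1* rose by 0.79 on the log2 scale (SE 0.263, adjusted p = 0.0296). It was 1.37 within series 8995, with 1 library a group, and 0.50 within series 9262. The call for *Snai1* was lost in 4 of the 7 fits that left out 1 library, without WT replicate 2 (0.69, adjusted p = 0.0829), WT replicate 3 (0.80, 0.0658), KO22 replicate 2 (0.89, 0.056) or KO22 replicate 3 (0.83, 0.0663), and the log2 fold change was 0.48 without WT replicate 1 and 0.50 without KO22 replicate 1.

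*Snai2*, which encodes the SLUG protein of neural crest and mesenchyme, went the other way. Its level was 36.3, 32.8, 35.3 and 29.4 CPM in WT and 11.1, 22.5 and 22.9 CPM in KO22, and every KO22 library lay below every WT library. Its log2 fold change was -0.85 (SE 0.213, adjusted p = 0.00807). The KO22 library of series 8995 was lowest, with a difference of -1.67 within that series and of -0.51 within series 9262. Without KO22 replicate 1 the log2 fold change was -0.51 and without WT replicate 1 it was -0.53, both still past the adjusted p limit.

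*Twist2*, a bHLH repressor of mesenchymal differentiation, rose most of the 8. It was at 3.34, 2.88, 2.45 and 2.94 CPM in WT and at 15.7, 9.89 and 10.5 CPM in KO22, from 25 to 84 counts in WT and 135 to 205 counts in KO22. The groups were far apart, with the lowest KO22 library at 9.89 and the highest WT library at 3.34 CPM. *Twist2* had a log2 fold change of 1.99 (SE 0.179, adjusted p = 2.19e-05), a 3.96-fold rise, and it was 2.08 within series 8995 and 1.72 within series 9262. In the 13 alternative fits it ran from 1.85 to 2.03.

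*Twist1*, the paralog needed for mesoderm and neural crest development, was at 32.4, 32.4, 31.1 and 33.4 CPM in WT and at 22.2, 26.4 and 27.4 CPM in KO22. Every KO22 library lay below the narrow WT range. *Twist1* fell by 0.35 on the log2 scale (SE 0.115, adjusted p = 0.0283). It did not pass without WT replicate 2 (-0.37, adjusted p = 0.0541) or WT replicate 4 (-0.35, 0.0656), with no series term (-0.35, 0.0532) or in one fit over the 9 mRPE libraries (-0.35, 0.0607).

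The annotation places 2 lncRNA genes over *Twist2*. *Gm29100* on the opposite strand rose by 1.95 on the log2 scale (adjusted p = 0.000545), from a mean of 1.83 to 7.08 CPM, and *Gm29101* on the same strand rose by 1.65 (adjusted p = 0.0129), from 0.593 to 1.93 CPM. Both lncRNAs rose together with *Twist2*. The library kit keeps strand, but which strand was counted is not given in the sources used here, so reads of these genes cannot be assigned with certainty. The genes with the pattern most like that of *Twist2* over the 9 mRPE libraries, by root mean square difference of centred log2 CPM, were *Dpy19l1* (0.145) and *Zfp7* (0.148). *Dpy19l1* ran from 56.4 to 76.8 CPM in WT, from 207 to 293 CPM in KO22 and from 62.2 to 68.4 CPM in KO26.

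*Zeb1*, a repressor of epithelial genes that the miR-200 microRNAs hold down in epithelia, was at 197, 199, 219 and 177 CPM in WT and at 138, 167 and 152 CPM in KO22. Every KO22 library lay below every WT library. *Zeb1* fell by 0.38 on the log2 scale (SE 0.116, adjusted p = 0.0213). The call was lost without WT replicate 3 (-0.33, adjusted p = 0.0645) or KO22 replicate 3 (-0.40, adjusted p = 0.0517).

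*Zeb2*, its SMAD-binding paralog, was at 163, 240, 243 and 208 CPM in WT and at 235, 339 and 305 CPM in KO22. The KO22 library of series 8995 lay within the WT range, while within each series every KO22 library was above WT. In the fit with the series as a term *Zeb2* rose by 0.49 on the log2 scale (SE 0.108, adjusted p = 0.00401), with 0.53 within series 8995 and 0.48 within series 9262. With no term for the series the adjusted p was 0.066.

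*Prrx1*, a homeobox factor of limb and craniofacial mesenchyme, was at 280, 292, 274 and 294 CPM in WT and at 388, 409 and 419 CPM in KO22. The groups did not overlap and the spread within each was small. The log2 fold change was 0.51 (SE 0.0995, adjusted p = 0.00201).

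*Prrx2*, its lower expressed paralog, was at 35.9, 25.2, 27.8 and 33.5 CPM in WT and at 16.8, 14.5 and 16.2 CPM in KO22. Every KO22 library lay below every WT library. The log2 fold change was -0.97 (SE 0.142, adjusted p = 0.000381). In the fits that left out 1 library, *Prrx1* stayed between 0.45 and 0.54 and *Prrx2* between -1.08 and -0.90, all past the adjusted p limit. Over the 8 factors, every KO22 library was higher than every WT library for 3 and lower for 4, where 24.8% and 25.3% of all genes met these conditions.

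**Figure D1:**
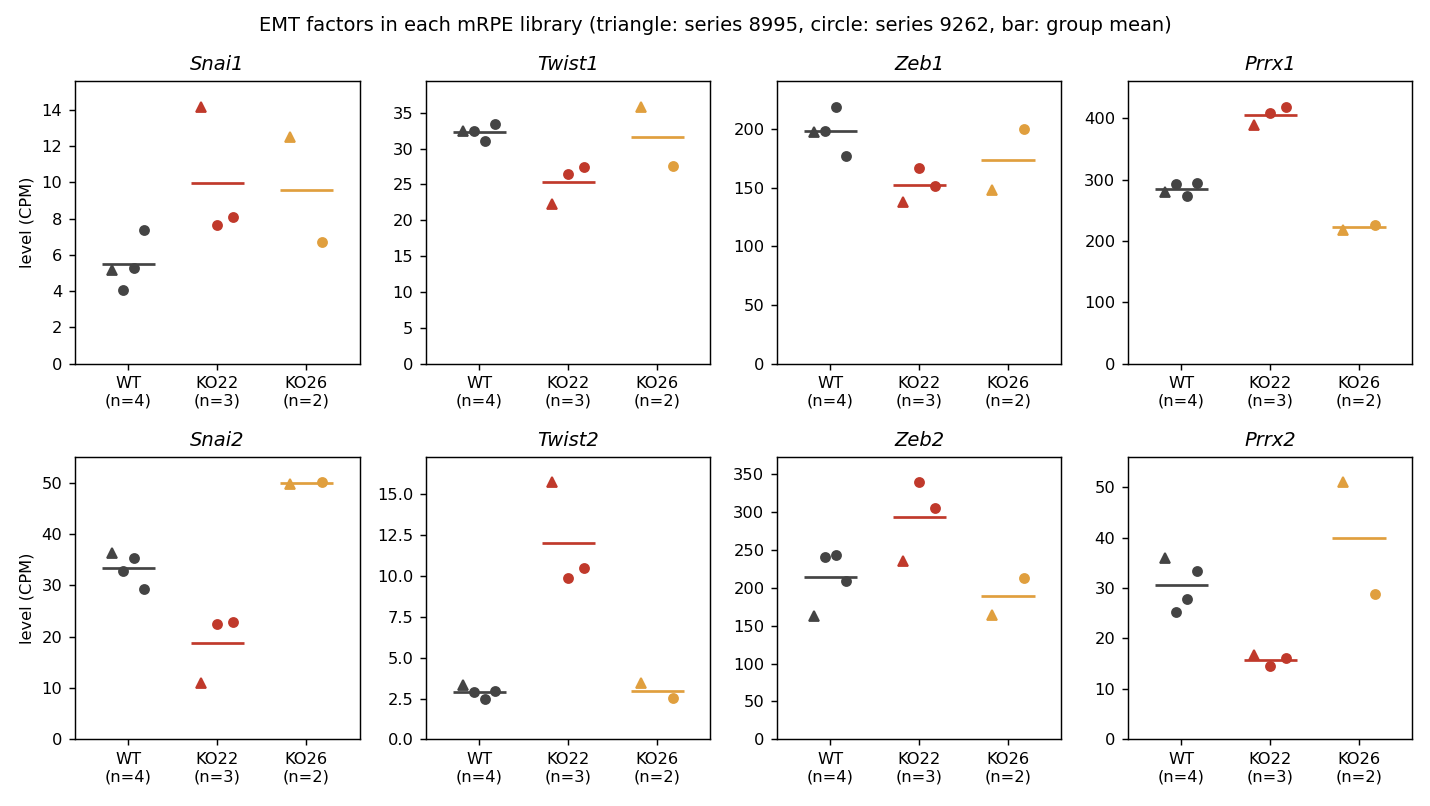
Level of 8 EMT factors in CPM (y axis, linear from 0) in each mRPE library, by group (x axis), with triangles for library series 8995, circles for series 9262 and bars for the group mean. *Twist2* is at 9.89 to 15.7 CPM in the 3 KO22 libraries and at 2.45 to 3.43 CPM in the WT and KO26 libraries, while *Zeb2* shows 1 KO22 library within the WT range.

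The paralogs can be set against each other within a library, as a ratio of counts that no scaling between libraries touches. The member that rose in KO22 is put first in each pair, so that a higher ratio in KO22 follows from this order. The *Twist2*:*Twist1* ratio was 0.0789 to 0.103 in WT and 0.375, 0.382 and 0.708 in KO22. The *Snai1*:*Snai2* ratio was 0.123 to 0.252 in WT and 0.341, 0.353 and 1.28 in KO22, where the KO22 library of series 8995 held more *Snai1* than *Snai2* counts (164 and 128). In both of these pairs it was the paralog rarer in WT that gained on the more abundant one.

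In the other pairs it was the more abundant paralog, or the equal one, that gained. The *Prrx1*:*Prrx2* ratio was 7.8 to 11.6 in WT and 23.2, 25.8 and 28.3 in KO22. The *Zeb2*:*Zeb1* ratio was 0.827 to 1.21 in WT and 1.7, 2.01 and 2.03 in KO22. None of the 4 ratios overlapped between KO22 and WT. Separation without overlap was common among single genes, at 24.8% in the higher and 25.3% in the lower direction. For all gene pairs the share was not computed. Where both members of a pair separate in opposite directions, their ratio must separate too, which held for all pairs but *Zeb2*:*Zeb1*. In a two-sided exact permutation test over the libraries each ratio reached p = 0.0571, the smallest that 3 against 4 libraries allow, and 0.228 after adjustment over 16 ratio tests. On the log2 scale the difference was 3.17 within series 8995 and 1.05 within series 9262 for *Snai1*:*Snai2*, 2.78 and 2.15 for *Twist2*:*Twist1*, 1.04 and 0.80 for *Zeb2*:*Zeb1*, and 1.57 and 1.43 for *Prrx1*:*Prrx2*.

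**Figure D2:**
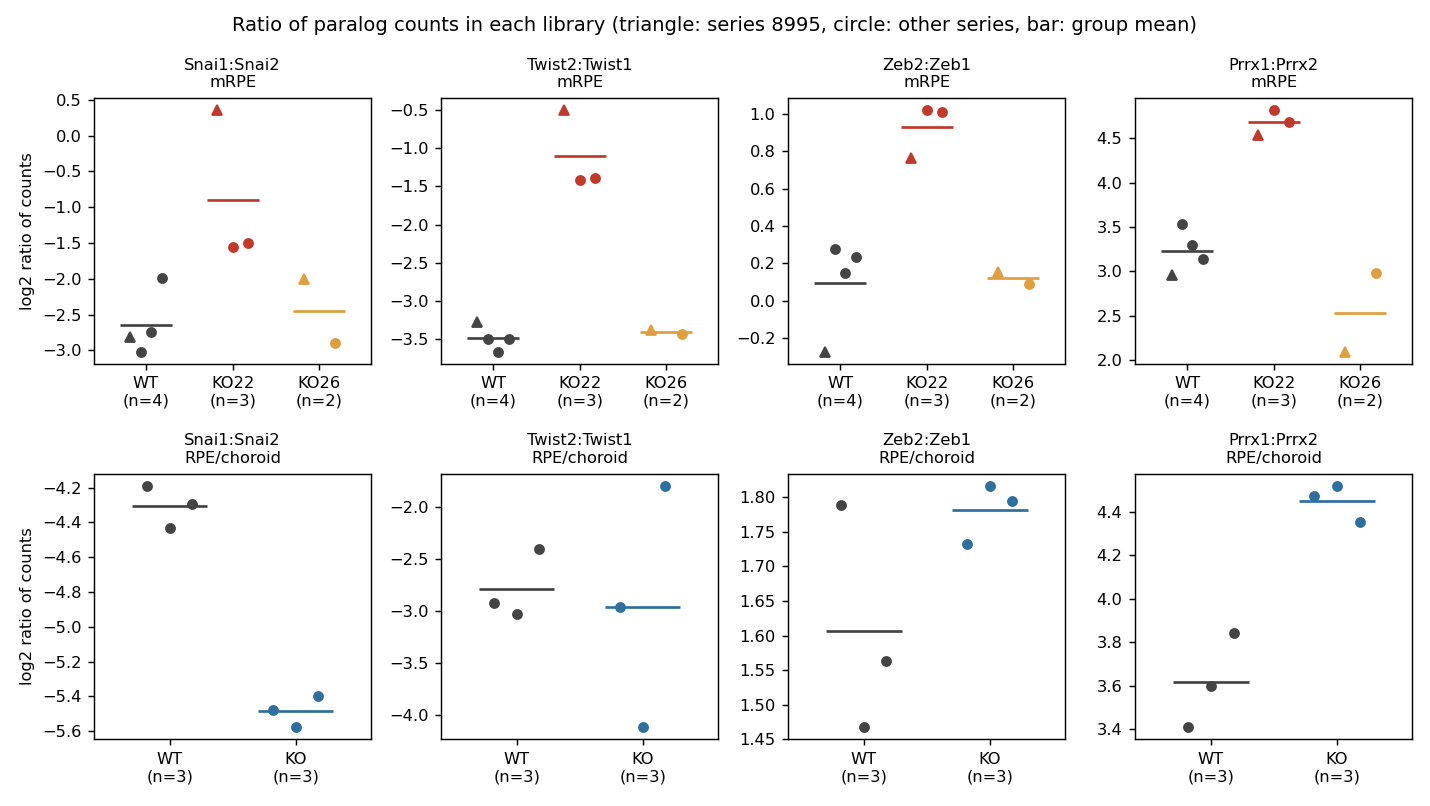
Log2 ratio of the counts of 2 paralogs (y axis) in each library by group (x axis), for mRPE in the upper and RPE/choroid in the lower row, with triangles for series 8995, circles for the other series and bars for the group mean. All 4 ratios of KO22 lie above those of WT, and in RPE/choroid the *Snai1*:*Snai2* and *Prrx1*:*Prrx2* ratios do not overlap. The member that rose in KO22 is put first in each pair, so the shared direction in KO22 follows from this order.

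In clone KO26 none of the 8 factors passed the adjusted p limit against WT in one edgeR fit over the 9 mRPE libraries, where 1.92% of 20737 genes were past both limits (1.21% higher and 0.719% lower) and 3.5% passed the adjusted p alone (2.36% higher and 1.13% lower). The smallest adjusted p was 0.15, and 2 factors had an unadjusted p under 0.05, where 20.1% of all genes did. *Prrx1* was at 218 and 227 CPM in KO26, below all WT libraries, with a log2 fold change of -0.34 (SE 0.122, adjusted p = 0.15). *Snai2* was at 49.8 and 50.1 CPM, above all WT libraries, with 0.63 (SE 0.234, adjusted p = 0.166). Both KO26 libraries lay below all WT libraries in 12.8% and above them in 11.9% of all genes.

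Both of these factors passed in some alternatives. DESeq2 gave *Prrx1* an adjusted p of 0.0123. With WT and KO26 libraries alone the adjusted p was 0.0415 for *Prrx1* and 0.00834 for *Snai2*, and without KO22 replicate 1 it was 0.0311 and 0.00324. For the other factors KO26 lay within or beside the WT range, with *Twist2* at 3.43 and 2.54 CPM, *Snai1* at 12.5 and 6.71, *Prrx2* at 50.9 and 28.8, *Twist1* at 35.8 and 27.5, *Zeb1* at 148 and 200, and *Zeb2* at 164 and 213 CPM. The KO26 library of series 8995 was above all WT libraries for *Snai1*, *Prrx2*, *Twist1* and *Twist2* and below them for *Zeb1*, and the library of series 9262 was not, and lay below all WT libraries for *Twist1*. In the edgeR fit over 9 libraries *Snai1* had a log2 fold change of 0.64 in KO26 (SE 0.314, adjusted p = 0.286). It was 1.2 within series 8995 and 0.28 within series 9262.

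The clones were also compared with each other in that fit, where 34.4% of genes passed the adjusted p alone, 16.3% higher and 18.1% lower in KO22. *Twist2* (log2 difference 2.07, SE 0.244, adjusted p = 0.000143), *Prrx1* (0.86, SE 0.129, adjusted p = 0.000644) and *Zeb2* (0.56, SE 0.138, adjusted p = 0.0104) were higher in KO22 than in KO26. *Snai2* (-1.48, SE 0.253, adjusted p = 0.00139) and *Prrx2* (-1.23, SE 0.199, adjusted p = 0.000979) were lower. *Twist2*, *Snai2* and *Prrx2* passed both limits, with 7.56% of genes past both limits in the higher and 10.7% in the lower direction. Without KO22 replicate 1, *Snai2* (-1.08) and *Prrx2* (-1.08) stayed past the adjusted p limit and fell short of the fold limit, as did *Prrx2* without KO26 replicate 1 (-0.95), and *Zeb2* lost its call without KO26 replicate 2 (0.50, adjusted p = 0.076), with no series term (0.64, 0.0721) and with the libraries of the clones alone (0.52, 0.0971). For *Snai1* (0.13, SE 0.317), *Twist1* (-0.32, SE 0.172) and *Zeb1* (-0.22, SE 0.153) no difference between the clones passed, and *Twist1* passed without KO26 replicate 2 (-0.58, adjusted p = 0.0472). The paralog ratios of KO26 overlapped those of WT in all 4 pairs, for example at 0.0959 and 0.0924 for *Twist2*:*Twist1*. For *Prrx1*:*Prrx2* they were 4.27 and 7.88 against 7.8 to 11.6 in WT, and below every WT library of the same series.

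**Figure D3:**
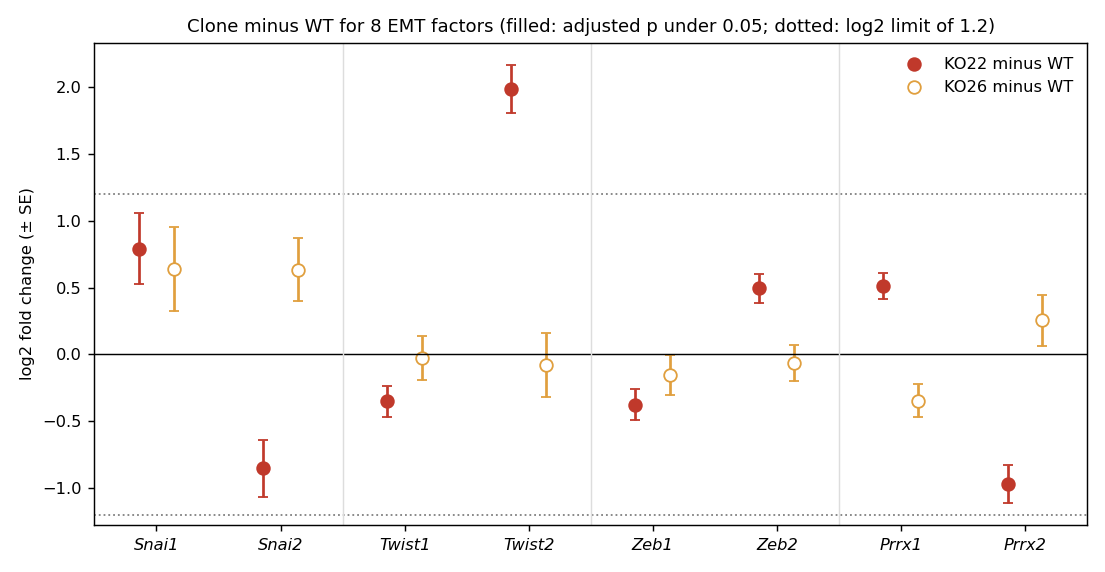
Log2 fold change against WT (y axis) with its standard error (bars) for 8 EMT factors (x axis) in clones KO22 (red, 3 libraries) and KO26 (orange, 2 libraries), with filled points for an adjusted p under 0.05 and dotted lines at the fold limit of 1.2. All 8 KO22 points are filled, only *Twist2* passes the dotted line at 1.99, and no KO26 point is filled. KO22 is from the fit with WT alone and KO26 from the fit over 9 libraries, in which *Twist1* of KO22 does not pass (adjusted p = 0.0607).

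The genes that act with or under these factors were described by lists of known roles, each read against the 25.2% of all genes past both limits and the median log2 fold change of -0.03 over all genes in KO22. Among 35 of 36 mesenchymal genes that could be tested, 4 were past both limits in the higher and 12 in the lower direction, with a median log2 fold change of -0.58. *Postn*, a matrix protein of fibroblasts, fell from a mean of 8610 to 314 CPM (log2 -4.77, SE 0.224, adjusted p = 6.98e-07). The contractile genes *Tagln* (-1.89, adjusted p = 3.89e-06) and *Acta2* (-2.28, adjusted p = 6.43e-06) and the receptor gene *Pdgfra* (-1.51, adjusted p = 1.21e-05) fell too. The list was not uniform, as the integrin gene *Itgb3* (1.28), the matrix phosphoprotein gene *Spp1* (1.55) and the protease gene *Mmp9* (1.29) rose past both limits.

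Of the classical EMT readouts, *Fn1* (fibronectin) was at 8010 to 10900 CPM in WT and at 3220, 1790 and 1820 CPM in KO22 (log2 -2.19, adjusted p = 8.24e-05). *Col1a1* was at 3400 to 5410 CPM in WT and at 2060, 1380 and 1150 CPM in KO22 (log2 -1.50, adjusted p = 3.97e-05). *Cdh2* (N-cadherin) was at 49.7 to 65.1 CPM in WT and at 23.5, 36.3 and 28.2 CPM in KO22 (log2 -1.01, adjusted p = 0.000106), past the adjusted p limit and short of the fold limit. *Acta2*, the gene of smooth muscle actin, showed no overlap either, at 589 to 1650 CPM in WT and at 233, 153 and 147 CPM in KO22. *Vim* (vimentin) went the other way, from 1800 to 2290 CPM in WT to 2930, 2530 and 2400 CPM in KO22 (log2 0.41, adjusted p = 0.0138). In KO26 none of these 5 passed, with *Fn1* at 7800 and 12600 CPM, *Col1a1* at 6140 and 7590 CPM and *Cdh2* at 75.8 and 62.6 CPM.

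Only 15 of 30 epithelial genes that EMT factors are known to repress could be tested in mRPE. Of these, 3 were past both limits in the higher and 6 in the lower direction (median log2 -0.67). The tight junction gene *Cldn1* fell from 235 to 4.71 CPM (-5.69, adjusted p = 1.98e-05), and the junction and keratin genes *Jup* (-2.25), *Patj* (-4.63) and *Krt7* (-3.64) fell as well. The 3 higher genes, *Cdh3*, *Krt19* and *Spint1*, had 0 to 7 counts in each WT library and 4 to 102 in each KO22 library. Each reached the filter's 5 counts in 1 WT library only and so entered the test mainly through KO22, which limits what their count can show. *Cdh1* was near the limit of detection in mRPE, at 0.119 to 0.491 CPM in WT and at 1.04, 0.627 and 0.155 CPM in KO22, which overlapped (log2 1.34, SE 0.692, adjusted p = 0.132). In WT RPE/choroid it was at 26.8 to 44.7 CPM.

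*Cdh1* is the textbook target of the SNAIL and ZEB repressors, so its promoter is shown. The 250 bases before its canonical start hold 3 matches to the E-box CAGGTG, read on both strands (CACCTG is its reverse complement), whose first bases lie 69, 63 and 13 bases before that start. The 208 bases upstream of all annotated exons are chr8:107329733-107329940 (GRCm39, plus strand), printed 5′ to 3′ with the 2 E-boxes they hold in capitals.
Cdh1: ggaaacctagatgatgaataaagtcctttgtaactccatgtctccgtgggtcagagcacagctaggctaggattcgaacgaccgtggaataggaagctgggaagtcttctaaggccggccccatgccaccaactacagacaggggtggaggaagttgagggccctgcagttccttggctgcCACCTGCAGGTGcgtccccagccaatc

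The same letters occurred in 17.7% of all 21751 protein-coding promoters of this length, in 16 of 30 promoters of the epithelial list (53.3%) and in 4 of 36 of the mesenchymal list (11.1%). Among the factors themselves, the promoter of *Snai1* held 1 match and that of *Zeb1* held 2, and those of the other 7 held none. A match is a description of letters and not of a bound site.

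Of 22 tested out of 26 other transcription factors tied to EMT, 6 were past both limits in the higher and 1 in the lower direction in KO22 (median log2 0.47). *Sox9*, a factor of chondrocytes and of RPE, rose from 14.9 to 83.9 CPM (2.45, SE 0.176). The ETS factor *Etv4* (2.92), the homeobox factor *Meox1* (2.44) and the Krüppel-like factor *Klf8* (2.23) rose from about 1 CPM, and the zinc finger factor *Osr1* fell from 54.4 to 13.4 CPM (-2.01). Among 7 E proteins and ID inhibitors, which pair with or sequester TWIST proteins, *Tcf12* (1.22, from 220 to 534 CPM) and *Id1* (1.85, from 18.1 to 67.5 CPM) rose past both limits and none fell past both.

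Of 9 tested out of 16 factors that hold cells epithelial, *Klf5* (1.85) and *Ehf* (2.59) rose. *Grhl2*, the grainyhead-like factor of epithelia, had at most 3 counts in each WT library and was at least 4.89-fold higher in KO22, at a mean of 1.02 CPM against 3 counts per WT library. *Foxa1* had at most 3 counts in each KO22 library and was at least 4.65-fold lower there than its WT mean of 0.987 CPM, against 3 counts per KO22 library. *Grhl2* thus entered the test only through KO22 and *Foxa1* only through WT, so the filter fixed the direction of each. Of 16 corepressors and chromatin partners, the methyltransferase genes *Setdb1* (1.25) and *Dnmt1* (1.89) rose past both limits, and 11 rose and 1 fell at the adjusted p alone, where 26.9% of all genes rose and 26.1% fell. Of 18 tested kinase and ubiquitin ligase genes of these proteins, *Btrc* fell (-1.35) and *Usp51* was at least 2.2-fold higher in KO22. *Usp51* also had at most 3 counts in each WT library and entered the test only through KO22. Of 14 TGF-beta input genes, 3 fell past both limits and none rose past both. They were the receptor gene *Tgfbr2* (-2.48, from 366 to 66.7 CPM) and the ligand genes *Tgfb2* (-1.66) and *Tgfb3* (-2.02).

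**Figure D4:**
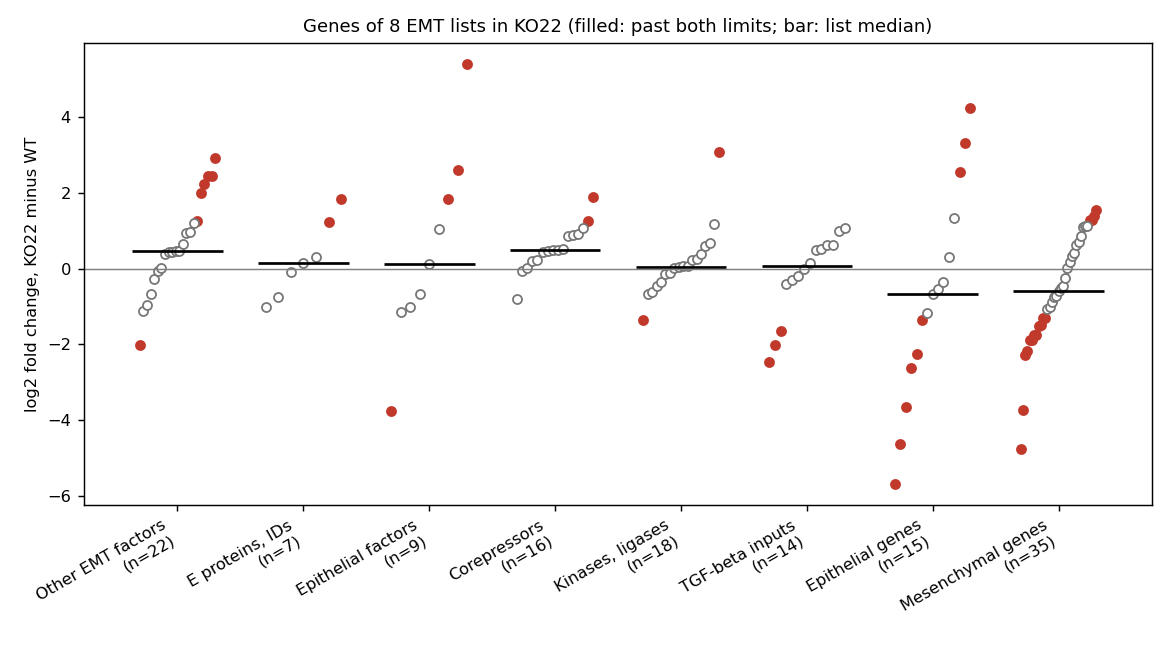
Log2 fold change of KO22 against WT (y axis) for each tested gene of 8 lists tied to EMT (x axis), with red points past both limits, open points for the rest and a bar for the list's median. The mesenchymal (median -0.58) and epithelial (-0.67) genes lie mostly below 0 and the other EMT factors (0.47) mostly above it.

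The markers of other cell types moved as well. The summed level of 9 of 10 fibroblast markers was 12840 to 17530 CPM in WT, 5625 to 8763 in KO22 and 19880 to 21800 in KO26, with 1 marker past both limits in the higher (*Fbln1*) and 5 in the lower direction in KO22. The sum of 3 of 5 scleral cartilage markers was 0.491 to 1.58 CPM in WT and 17.2 to 29.98 in KO22. *Acan* made up nearly all of the KO22 sum, at a mean of 21.7 CPM, and was at least 104-fold higher. It had at most 3 counts in each WT library and entered the test only through KO22. The median log2 fold change over the 3 markers was 0.17, with 1 marker below WT in every KO22 library. Of 18 RPE markers the mRPE table lists 8, with no entry for the defining *Rpe65*, *Rlbp1*, *Lrat*, *Tyr* and *Otx2*. The sum of the 8 was 175 to 202 CPM in WT and 222 to 263 in KO22. The list was split, with 2 of the 8 past both limits in the higher and 2 in the lower direction (median log2 0.17). Smooth muscle markers (7 listed, 6 of them tested) summed to 652 to 1791 CPM in WT and 208 to 305 in KO22. *Acta2* made up most of that sum, at 589 to 1650 CPM in WT and 147 to 233 in KO22. The median log2 fold change over the 6 was -0.74, with 1 past both limits higher and 3 lower. Pericyte markers summed to 323 to 362 CPM in WT and 165 to 203 in KO22, and endothelial markers to 217 to 272 and 82.6 to 97.7. Few abundant genes carried the pericyte and endothelial sums, *Pdgfrb* (-1.32) for pericytes and *Kdr* (-6.22) for endothelium. The median log2 fold change was 0.90 over 6 pericyte and 0.47 over 7 endothelial markers, with 2 and 1 past both limits higher and 2 and 2 lower. Macrophage markers had 2 of 10 listed, at 7.61 to 9.32 CPM in WT. The part of these shifts in the levels of the 8 factors was not tested.

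In KO26, 1 of 35 mesenchymal genes and none of 15 epithelial genes were past both limits in the higher direction, none and 1 in the lower direction, where 1.21% of all genes were higher and 0.719% lower. No gene of the other EMT factors, the E proteins, the kinases or the TGF-beta inputs passed the adjusted p limit.

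In RPE/choroid no fall of the targeted gene passed the adjusted p limit. On the TMM scale *Prom1* was at 48.7, 49.6 and 53.3 CPM in WT and at 49.9, 48.1 and 35.5 CPM in the libraries labelled *Prom1*-KO. Its log2 fold change was -0.18 (SE 0.158, adjusted p = 0.824), in a tissue that can hold cells outside the RPE. Its counts were 3472, 2930 and 3659 in WT and 2570, 2947 and 1071 in labelled *Prom1*-KO. Divided by total counts alone, *Prom1* was lower in every labelled *Prom1*-KO library than in every WT library, and lowest in the third. Counts per gene do not show single exons of the fl/fl alleles. The RPE markers were all listed and their summed level was 2774 to 3794 CPM in WT and 1366 to 1558 CPM in the labelled *Prom1*-KO libraries, with 5 of 18 past both limits in the lower direction and *Lrat* leading (-3.43, adjusted p = 0.00445). In bulk samples fewer cells of a type and less RNA per cell cannot be told apart. The third *Prom1*-KO library stood apart, with 84.2% of its counts from mitochondrially encoded genes against 64.9% to 71.3% in the other 5. The summed photoreceptor markers ranged from 41.1 to 1137 CPM in WT and from 20.4 to 544 CPM in labelled *Prom1*-KO, and skeletal muscle markers from 288 to 932 and from 63.6 to 804 CPM. Endothelial markers summed to 136 to 261 CPM in WT and 90.4 to 122 in labelled *Prom1*-KO, and fibroblast markers, which mark the cells in which these factors are best known, to 972 to 1961 and 874 to 1909 CPM. The part of these shifts in the levels of the factors was not tested.

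None of the 9 factors passed the adjusted p limit in RPE/choroid. Over 24926 tested genes none was higher and 47 were lower past both limits (0.189%), 0.193% passed the adjusted p alone, and 8.3% had an unadjusted p under 0.05, which no factor had. The smallest adjusted p of the 9 was 0.63. *Zeb2* was at 94.1, 120 and 117 CPM in WT and at 107, 103 and 128 CPM in labelled *Prom1*-KO (log2 0.03, SE 0.159). *Zeb1* was at 27.2, 43.5 and 39.7 against 32.2, 29.2 and 37.0 CPM (-0.17, SE 0.197). The ranges overlapped for both ZEB factors.

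*Snai2* was at 13.1, 11.7 and 9.45 CPM in WT and at 9.51, 13.3 and 25.2 CPM in labelled *Prom1*-KO (log2 0.49, SE 0.343), highest in the third library. *Snai1* was at 0.715, 0.541 and 0.481 CPM in WT and at 0.214, 0.278 and 0.597 CPM in labelled *Prom1*-KO (-0.72, SE 0.449), from 11 to 51 counts. *Twist1* was at 1.60, 2.35 and 1.54 against 0.757, 0.849 and 2.19 CPM (-0.56, SE 0.437). For *Snai1* and *Twist1* the first and second labelled *Prom1*-KO libraries lay below all WT libraries and the third did not on the TMM scale. Scaled by total counts alone the third lay below WT too. Labelled *Prom1*-KO was then at 0.228 to 0.298 against 0.608 to 0.855 for *Snai1* and 0.81 to 1.07 against 1.91 to 2.64 for *Twist1*. The share of all genes that separate on that scale was not computed. With mitochondrially encoded genes left out before TMM scaling the third library lay within the WT range. It was then at 2.11 against 1.74 to 2.56 CPM for *Snai1* and at 7.73 against 5.58 to 8.51 CPM for *Twist1*.

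*Twist2* rested on 15 to 20 counts in WT and 3 to 19 in labelled *Prom1*-KO, at 0.21, 0.288 and 0.291 against 0.0971, 0.049 and 0.63 CPM (log2 -0.17, SE 0.851). *Prrx1* was at 12.5, 16.8 and 19.2 against 16.4, 13.9 and 23.7 CPM (0.15, SE 0.242). *Prrx2* was at 1.18, 1.39 and 1.34 CPM in WT and at 0.738, 0.604 and 1.16 CPM in labelled *Prom1*-KO, with every labelled *Prom1*-KO library below every WT library, as in 7.89% of all genes, while for no factor was every labelled *Prom1*-KO library higher, as in 6.7% of all genes (-0.66, SE 0.301, adjusted p = 0.639). *Tcf21*, listed in this tissue, was at 0.0842, 0.254 and 0.175 against 0.349, 0.245 and 0.663 CPM (1.26, SE 0.563, adjusted p = 0.63), from 6 to 20 counts. The third library, with a TMM factor of 0.488 against 1.07 to 1.33 in the other 5, was the highest of its group for all 9 factors on this scale. Scaled by total counts alone, it was the highest of its group for 2 factors (*Twist1* and *Twist2*) and the lowest for 4, among them *Zeb1* (18.1 against 34.5 and 31.3 CPM) and *Zeb2* (62.7 against 114 and 110).

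Without that library the log2 fold change was -1.24 for *Snai1*, -1.2 for *Twist1*, -1.86 for *Twist2*, -0.97 for *Prrx2* and 0.79 for *Tcf21*, with adjusted p between 0.293 and 0.76, and *Snai2* (-0.01), *Zeb2* (-0.09) and *Prrx1* (-0.11) changed sign. No difference was detectable for *Snai1*, *Twist2*, *Prrx2* and *Tcf21* at counts of 3 to 92 per library.

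**Figure D5:**
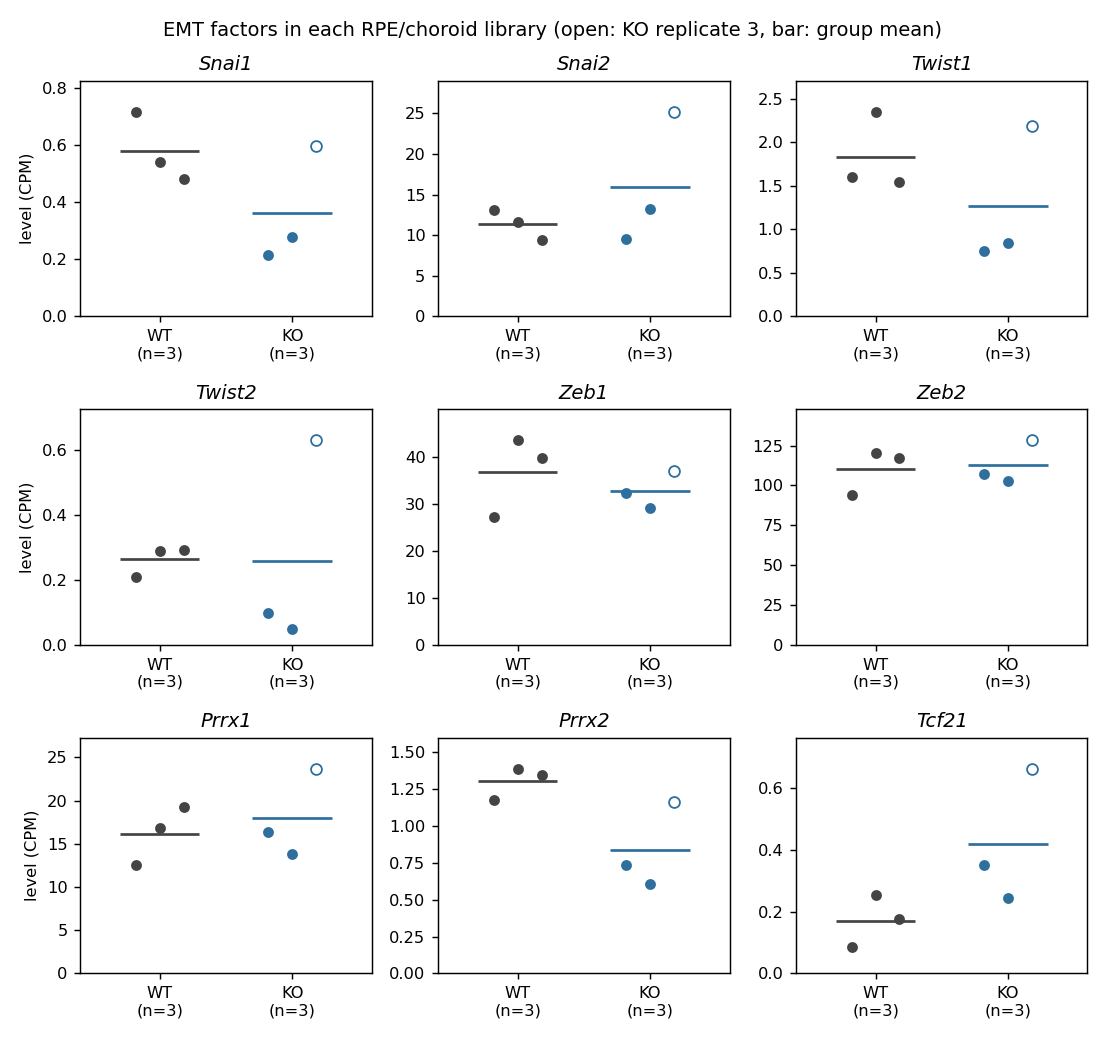
Level of the 9 EMT factors in CPM (y axis, linear from 0) in each RPE/choroid library, by group (x axis, 3 libraries each), with bars for the group mean and an open point for the third labelled *Prom1*-KO library. On this TMM scale that library is the highest of its group in all 9 plots and only *Prrx2* has no overlap between the groups. By total counts it is the lowest for 4 factors and *Snai1* and *Twist1* do not overlap either. With mitochondrially encoded genes left out before TMM scaling it lies within the WT range for *Snai1* and *Twist1*.

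The ratios of paralog counts, which do not depend on that library's scaling, separated the groups in 2 of 4 pairs. The share of all gene pairs that do so was not computed. Of single genes, 6.7% were higher and 7.89% lower in every labelled *Prom1*-KO library than in every WT library. *Snai1*:*Snai2* was 0.0548, 0.0463 and 0.0509 in WT and 0.0224, 0.0209 and 0.0237 in labelled *Prom1*-KO, a direction opposite to that in KO22. *Prrx1*:*Prrx2* was 10.6, 12.1 and 14.4 in WT and 22.2, 22.9 and 20.4 in labelled *Prom1*-KO, the direction seen in KO22. *Zeb2*:*Zeb1* (2.76 to 3.46 against 3.32 to 3.52) and *Twist2*:*Twist1* (0.122 to 0.189 against 0.0577 to 0.288) overlapped. In the exact permutation test the first pair of ratios each reached p = 0.1, the smallest that 3 against 3 libraries allow, and 0.267 after adjustment over the 16 tests. The *Snai1* counts behind the first ratio were 32 to 51 in WT and 11 to 18 in labelled *Prom1*-KO, and the *Prrx2* counts behind the second were 82 to 92 and 35 to 38.

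No gene of the EMT lists passed the adjusted p limit in RPE/choroid, over 36 mesenchymal genes (median log2 -0.16), 30 epithelial genes (-0.03), 23 other EMT factors (-0.20) and 14 TGF-beta input genes. The smallest p values of these lists were for *Fap* (-0.90, SE 0.173, adjusted p = 0.158) and *Pdgfrb* (-0.83, SE 0.182, adjusted p = 0.201), both genes of fibroblasts and mural cells, and for *Smad3* (-0.59, SE 0.129, adjusted p = 0.201).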

How the data were processed

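RNA-seq of 9 mRPE and 6 RPE/choroid libraries was used. The authors trimmed reads with Trim Galore 0.6.7, aligned them to mm39 with STAR and deposited the raw counts per gene, the unit used here. The authors also deposited normalized signal values, these counts divided by 1 size factor per library, which were read to check the counts and entered no test. The kit is stranded, and the strand counted is not given in the sources used here. Groups come from the sample labels, and total counts were 8076188 to 27537863 for mRPE and 48154444 to 61766179 for RPE/choroid. Replicate libraries differed by more than counting noise (chi-square per degree of freedom of at least 4.8). Nothing says that they came from separate cultures, so p-values measure the spread between libraries.

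The quasi-likelihood test of edgeR (version 4.0.16, in R 4.3.3) was run on every gene that reached 5 counts in 3 or more libraries. Scaling was by TMM, the library series was a term for mRPE, and Benjamini-Hochberg adjustment covered all genes. The limits, taken from the study, were 0.05 for the adjusted p and 1.2 for the size of the log2 fold change. KO22 was fitted with WT alone. KO26 has 2 libraries and was fitted over all 9, so that the spread was shared. The study left these 2 libraries out as outliers in its principal component analysis. All 8 factors in mRPE and all 9 in RPE/choroid passed the filter. The SE was taken from the F statistic, as the size of the log2 fold change over its root. Values within a series are differences of mean log2(CPM + 0.5). Ratios were compared with a two-sided exact permutation test, chosen after the values were seen. Members and gene lists were chosen with earlier results of these data known. Genes named besides the 9 factors are *Prom1*, *Cdh1*, *Cdh2*, *Vim*, *Fn1*, *Acta2* and *Col1a1*, up to 4 called genes per list and direction with the smallest p in KO22 (up to 2 in RPE/choroid), and the 2 most like *Twist2*. Coordinates and lengths are from GRCm39 with GENCODE vM39, as are the sequences. The methods were also run on simulated data, and the outcome is not given here. Alternatives were DESeq2 1.42.0 (size factors or test), other count filters, no fold limit, no series term, other sets of libraries and each library left out, and, chosen after seeing the data, leaving out mitochondrially encoded genes. *Prom1* in mRPE was not analysed here, and 1 gene that the naming rule selects is not reported here.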

Additional observations from a re-analysis of the deposited data

Results flagged for a closer look

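For 5 of the 8 factors the clones differed from each other in the edgeR fit over 9 mRPE libraries, although both carry the label *Prom1*-KO. KO22 minus KO26 was 2.07 on the log2 scale for *Twist2*, 0.86 for *Prrx1* and 0.56 for *Zeb2*, and -1.48 for *Snai2* and -1.23 for *Prrx2*. The call for *Zeb2* was lost with no series term (adjusted p = 0.0721), with the libraries of the clones alone (0.0971) and without KO26 replicate 2 (0.076). For *Prrx1* and *Snai2* the 2 clones lay on opposite sides of WT. Each clone is 1 line, so the clone and its edit cannot be told apart. The study left both KO26 libraries out as outliers, which it ascribed to biological heterogeneity or technical anomalies. Of 12 sets of 4 WT mRPE values (8 levels and 4 ratios) none had a library far from the others. The KO22, KO26 and RPE/choroid groups have too few libraries for this check and were not covered by it.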

How the results depend on the processing

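Against WT, KO22 kept the direction of its 8 factors in all 104 values under alternatives, 93 of them on the same side of the adjusted p limit and 11 no longer past it (*Snai1*, *Twist1*, *Zeb1* and *Zeb2*). KO22 against KO26 kept 118 of 120 directions, KO26 against WT 117 of 120 and RPE/choroid 92 of 99. Low counts limit *Twist2*, *Snai1*, *Prrx2* and *Tcf21* in RPE/choroid, and 2 libraries limit KO26. The cause of each change below was not tested. No paired analysis was possible because replicate numbers were given in accession order and the labels share none between groups.

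With no fold limit, KO22 had 4 factors higher and 4 lower than WT, and all genes called went from 2338 to 5506 higher and from 2816 to 5331 lower. Against KO26 it then had 3 factors higher, not 1, and 3388 genes higher and 3744 lower, not 1568 and 2229. With the KO22 and KO26 libraries alone the latter counts were 988 and 1348. Leaving out 1 library gave 0 to 2 factors lower in KO22 than in KO26 past both limits, and *Snai1* ran from -0.14 to 0.40.

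KO26 against WT had 250 genes higher and 149 lower. These were 490 and 235 with no fold limit, 123 and 71 with no library series term, where *Twist2* was 0.0535, and 408 and 410 with WT and KO26 libraries alone, with 1 factor higher and 1 lower at the adjusted p. DESeq2's test gave 1 factor lower and 269 genes lower. Leaving out 1 library gave 68 to 471 genes higher and 32 to 407 lower, and 0 to 1 factor in each direction. *Prrx2* ran from -0.0217 to 0.565 and *Twist1* from -0.264 to 0.235.

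RPE/choroid had 0 genes higher and 47 lower. These were 83 and 188 with DESeq2's test, and 1 gene was higher with filterByExpr or without mitochondrially encoded genes. Leaving out 1 library gave 0 to 5 higher and 9 to 37 lower. *Zeb2* ran from -0.0898 to 0.0914, *Prrx1* from -0.11 to 0.31, *Twist2* from -1.86 to 0.39 and *Snai2* from -0.015 to 0.743.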
